A study of Mus musculus with 24 samples.

Results

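Bone is built by osteoblasts and removed by osteoclasts, and marrow cells contain the precursors of both. Described here are 10 genes of these cells, measured in marrow cells of mice that had flown in space and of ground controls: 5 osteoclast enzymes and receptors (Acp5, Ctsk, Atp6v0d2, Ocstamp and Tnfrsf11a) and 5 osteoblast matrix genes (Bglap, Bglap2, Col1a1, Col1a2 and Sparc). They were chosen by name and taken as the rows of the expression table whose Ensembl ID carries that symbol in GENCODE vM21, which makes 10 of 54752 genes. All animals were male C57BL/6 mice, 6 in each of 4 groups. GC-WT and GC-KO mice were wild-type and Nrf2-KO ground controls, and FL-WT and FL-KO mice were wild-type and Nrf2-KO mice that spent 31 days in orbit on the MHU-3 mission and were examined 2 days after landing. The flight mice were 8 weeks old when they were moved to the launch site; the age of the ground mice is not given in the sources used here. Flight and ground animals were handled at different sites and times, so flight, re-entry, the days after landing and site cannot be told apart.

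Osteoclasts arise from monocyte precursors that receive RANKL through the receptor RANK (Tnfrsf11a), fuse with the help of Ocstamp and the proton pump subunit Atp6v0d2, acidify the bone surface, and digest matrix with cathepsin K (Ctsk) and the tartrate-resistant acid phosphatase (Acp5). Osteoblasts lay down type I collagen, made of the Col1a1 and Col1a2 chains, and add non-collagenous proteins such as osteonectin (Sparc) and osteocalcin (Bglap and Bglap2). Unloading of the skeleton is a known setting of bone loss, most studied in weight-bearing bones.

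The measured material limits what these genes can tell. Marrow cells were taken as a frozen suspension from pelvis and tibia of the right side, and the bone itself was not measured, so cells fixed to the bone surface are counted only as far as they came loose. RNA amounts are given as TPM, a relative measure that corrects for transcript length and sums to the same total in every library; depth is unknown. In a bulk sample of this kind, fewer cells of a type and less RNA per cell cannot be told apart. The 5 most abundant small RNAs held between 35.4% and 59.6% of all TPM in a library, and the median log2 fold change over all 12373 tested genes was itself below 0 in each comparison: −0.24 for FL-WT vs. GC-WT, −0.29 for FL-KO vs. GC-KO, −0.22 for GC-KO vs. GC-WT and −0.25 for FL-KO vs. FL-WT. The genotype labels were checked on Nfe2l2, the gene of Nrf2, at 11.4 to 27.3 TPM in the wild-type mice and 2.22 to 7.18 TPM in the Nrf2-KO mice, with no overlap.

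The FL-KO library of mouse 9 stood apart from the other 5 of its group in the genes described here. Its 5 matrix genes summed to 12.1 TPM (the others 1.9 to 3.95 TPM), and 8 markers of marrow stroma, the cells that support blood formation, summed to 52.4 TPM (the others 12.99 to 25.1 TPM). The 12 megakaryocyte markers summed to 164 TPM (the others 37.1 to 96.6 TPM), so the difference was not limited to bone genes. Results of Col1a1, Col1a2 and Sparc that include FL-KO mice are given below with and without this mouse.

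Detection separated the members. Acp5 was the most abundant, at 11.6 to 35.9 TPM, and ranked 1324th of all genes by mean level. Ctsk, Col1a1, Col1a2 and Sparc lay between 0.3 and 7.64 TPM, and each was above 0 in all 24 libraries. Atp6v0d2 exceeded 1 TPM in 2 libraries, GC-WT mouse 6 and FL-WT mouse 10. Tnfrsf11a, Bglap, Bglap2 and Ocstamp stayed below 1 TPM in every library and so did not pass the filter that the test across all genes used, which asks for more than 1 TPM in at least 1 library. Of the 10 members, 6 were therefore tested in that fit (limma on log2(TPM + 1), Benjamini-Hochberg adjustment over all tested genes), where a gene was called a DEG when its adjusted p was under 0.1 and its level changed at least 2-fold.

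**Figure D1:**
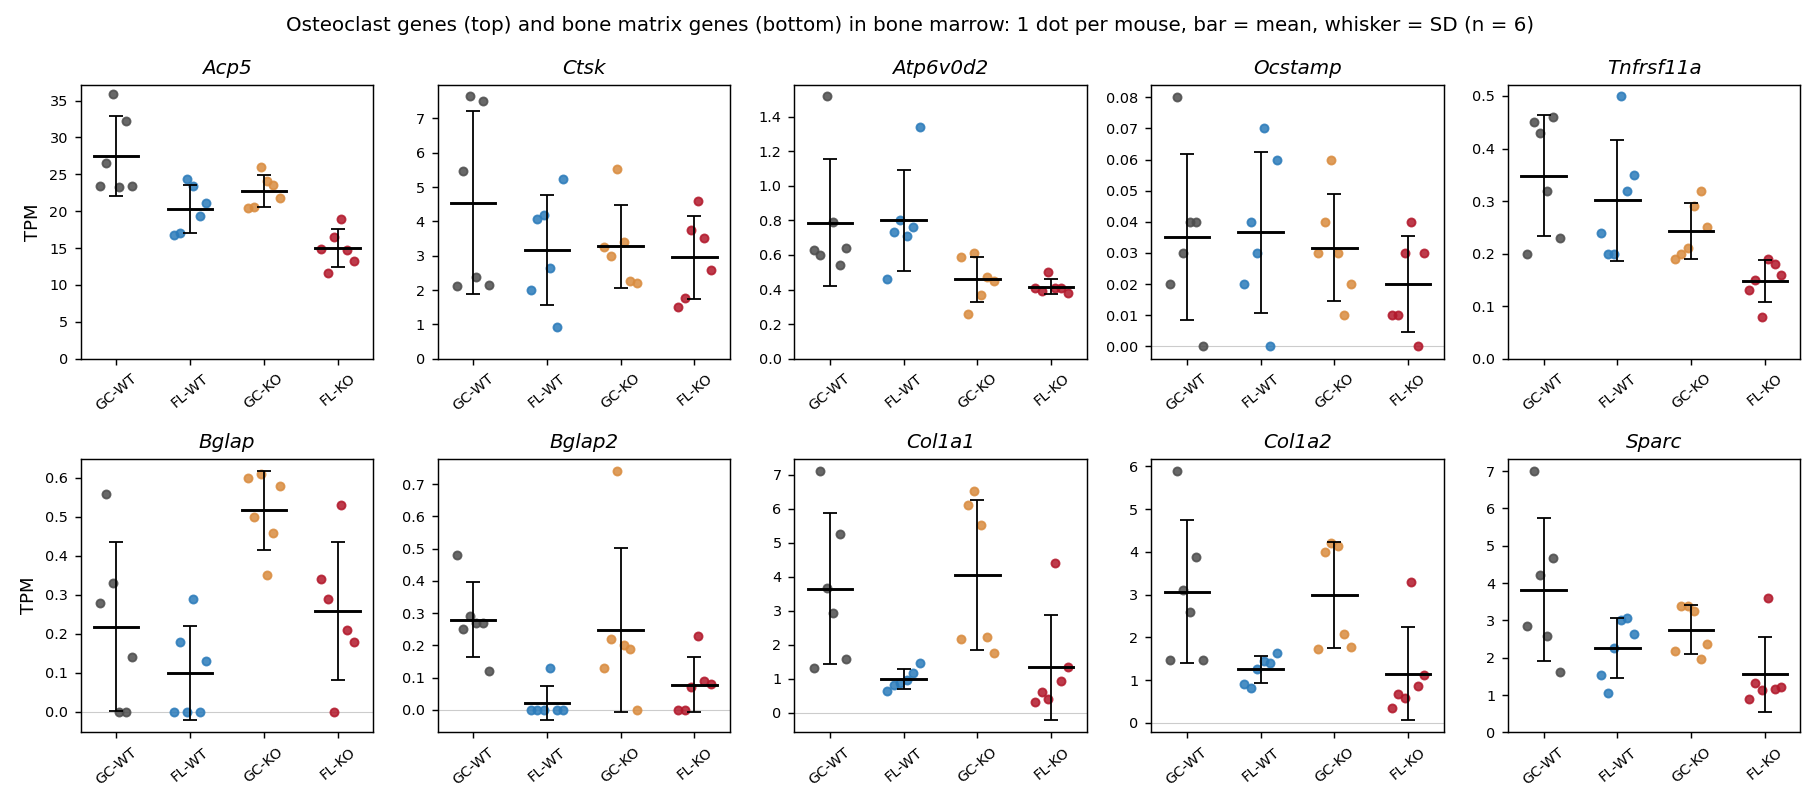
TPM of the 10 members in each of the 24 mice, with a panel and a y axis of its own for every gene; dots are mice, bars are group means and whiskers are SD (n = 6). Col1a1, Col1a2 and Sparc are lower in most flight mice of both genotypes, with FL-KO mouse 9 (4.39, 3.3 and 3.6 TPM) above the rest of its group, while the panels of Ocstamp, Bglap, Bglap2 and Tnfrsf11a stay under 1 TPM throughout.

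Among the 6 tested members, Col1a1 had the largest log2 fold change of TPM + 1 between flight and ground, and it was the only called DEG. In GC-WT mice its level ran from 1.32 to 7.1 TPM (median 3.29), and in FL-WT mice from 0.64 to 1.47 TPM (median 0.92). In all but 1 of the 6 FL-WT mice Col1a1 lay below the lowest GC-WT mouse. The mean was 3.64 ± 2.22 TPM on the ground and 0.988 ± 0.293 TPM after flight (SD, n = 6 each), 0.271 times as high, and the log2 fold change was −1.09 ± 0.32 (SE; limma, adjusted p = 0.014).

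In Nrf2-KO mice Col1a1 was also called lower after flight. GC-KO mice held 1.76 to 6.53 TPM (median 3.87) and FL-KO mice 0.3 to 4.39 TPM (median 0.76). Without mouse 9 the highest FL-KO value was 1.35 TPM, so 5 of 6 lay under the whole GC-KO group. The log2 fold change was −1.18 ± 0.32 (SE; limma, adjusted p = 0.0056), and −1.46 without mouse 9 (adjusted p = 0.000663).

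A single member called lower has to be read against all genes: in wild-type mice 0.938% of tested genes were called lower after flight and 0.0647% higher, and in Nrf2-KO mice 2.13% were called lower. Relative to the median of all genes, the Col1a1 log2 fold changes were −0.85 and −0.90. Under median-of-ratios scaling, which moves the median of all genes to about 0 (0.00 and −0.01), the values were −0.83 (adjusted p = 0.0741) and −0.99 (adjusted p = 0.0276), which kept the p but missed the 2-fold limit. That scaling also turned the split of all calls from 116 lower and 8 higher to 16 and 19 in wild-type mice, and from 264 and 0 to 22 and 8 in Nrf2-KO mice. Under quantile normalization Col1a1 had −0.76 in the wild type (adjusted p = 0.11). Leaving out GC-WT mouse 5 or GC-WT mouse 8, both at the upper end of their group, also ended the wild-type call, with log2 fold changes of −0.91 and −0.98.

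Col1a2, the second chain of the same collagen, moved beside Col1a1 but with a smaller difference. GC-WT mice held 1.47 to 5.89 TPM (median 2.86) and FL-WT mice 0.83 to 1.64 TPM (median 1.34). GC-KO mice held 1.74 to 4.21 TPM (median 3.04) and FL-KO mice 0.36 to 3.3 TPM (median 0.78). In each genotype 5 of 6 flight mice were below the whole ground group, the exceptions being FL-WT mouse 10 and FL-KO mouse 9.

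For Col1a2 the log2 fold change was −0.77 ± 0.25 in the wild type (SE; limma, adjusted p = 0.0252) and −0.94 ± 0.25 in Nrf2-KO mice (limma, adjusted p = 0.00511). Both passed the p threshold and missed the 2-fold limit on the log2(TPM + 1) scale, although the ratios of mean TPM were 0.408 and 0.386. The constant added before taking logs holds back fold changes at a few TPM, and with 0.1 in place of 1 Col1a2 was called in both genotypes (−1.10 and −1.53). In Nrf2-KO mice it was also called without FL-KO mouse 9 (−1.17) or without GC-KO mouse 1, 11 or 12 (−1.04, −1.01 and −1.04). Median-of-ratios scaling gave −0.52 in the wild type (adjusted p = 0.141) and −0.74 in Nrf2-KO mice (adjusted p = 0.0301).

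Sparc, which binds collagen and calcium in bone matrix and is also carried by megakaryocytes and platelets, was the third matrix gene with a lower level after flight. It ran from 1.63 to 7.01 TPM in GC-WT (median 3.54), from 1.07 to 3.07 TPM in FL-WT (median 2.45), from 1.98 to 3.39 TPM in GC-KO (median 2.81) and from 0.9 to 3.6 TPM in FL-KO mice (median 1.19). The wild-type groups overlapped over most of their range, and in FL-KO mice all but mouse 9 lay below the GC-KO group. The log2 fold change was −0.51 ± 0.23 in the wild type (SE; limma, adjusted p = 0.0841) and −0.61 ± 0.23 in Nrf2-KO mice (limma, adjusted p = 0.0348; −0.79 without mouse 9), neither reaching 2-fold. Relative to the median of all genes these were −0.27 and −0.32, and under median-of-ratios scaling neither passed the p threshold (adjusted p = 0.394 and 0.228).

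By the p threshold alone, 4 of the 6 tested members were lower in each flight comparison (Acp5, Col1a1, Col1a2 and Sparc), where 39.0% and 53.1% of all tested genes were. Of the 3 tested matrix genes none passed the threshold between genotypes. On the ground the log2 fold change of Nrf2-KO against wild-type mice was 0.14 ± 0.32 for Col1a1, 0.01 ± 0.25 for Col1a2 and −0.29 ± 0.23 for Sparc (SE; limma, adjusted p = 0.771, 0.986 and 0.332). After flight it was 0.05, −0.17 and −0.38 (adjusted p = 0.929, 0.638 and 0.188); leaving out mouse 9 moved these to −0.23, −0.39 and −0.56, the last with an adjusted p of 0.0332.

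Whether flight acted differently in the 2 genotypes was tested by the interaction, and no member was called. The difference between the 2 flight effects was −0.09 ± 0.45 for Col1a1, −0.18 ± 0.35 for Col1a2 and −0.09 ± 0.32 for Sparc on the log2 scale (SE), and the smallest unadjusted p of the 6 tested members was 0.354 (Acp5, limma). Over all genes 0.0162% were called in the interaction. With 1 mouse left out at a time, the interaction ran from −0.37 to 0.083 for Col1a1 and −0.40 to −0.051 for Col1a2. For Sparc it ran from −0.28 to 0.065.

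**Figure D2:**
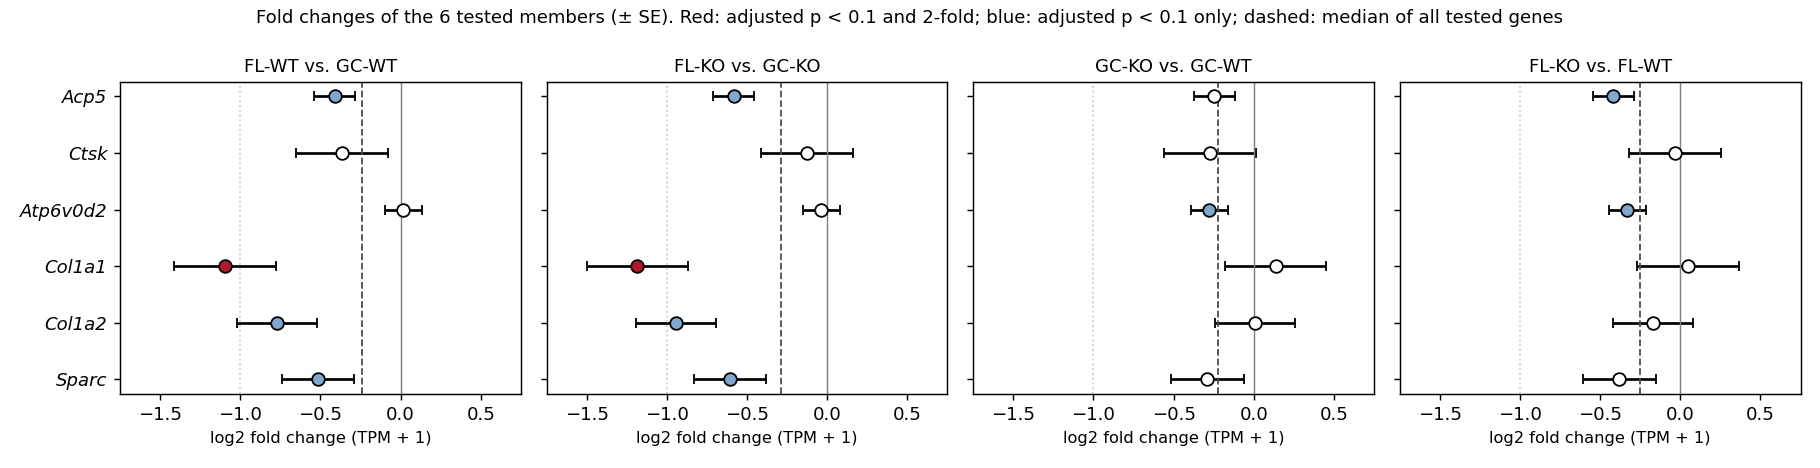
Log2 fold change of TPM + 1 with its SE (x axis) for the 6 tested members (y axis) in the 4 comparisons; red points passed the adjusted p of 0.1 and the 2-fold limit, blue points passed the p alone, white points neither, and the dashed line is the median of all 12373 tested genes. Col1a1 is red in both flight comparisons (−1.09 and −1.18), and the matrix genes sit near 0 or at the median of all genes in the genotype comparisons.

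Osteocalcin, the most bone-specific product of osteoblasts, is encoded in the mouse by neighbouring, nearly identical genes on chromosome 3. The coding sequences of Bglap and Bglap2 are shown because their likeness decides how far their TPM can be separated. Both are read from GENCODE vM21 (GRCm38) on the minus strand, over 4 exons, at chr3:88383635-88384415 and chr3:88377870-88378650, and the bases at which they differ are in capitals.
Bglap: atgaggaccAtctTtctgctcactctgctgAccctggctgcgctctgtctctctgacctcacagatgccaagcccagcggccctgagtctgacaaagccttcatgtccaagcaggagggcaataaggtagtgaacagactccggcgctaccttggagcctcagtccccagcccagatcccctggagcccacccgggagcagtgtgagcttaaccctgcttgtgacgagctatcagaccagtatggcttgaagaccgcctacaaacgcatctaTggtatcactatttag
Bglap2: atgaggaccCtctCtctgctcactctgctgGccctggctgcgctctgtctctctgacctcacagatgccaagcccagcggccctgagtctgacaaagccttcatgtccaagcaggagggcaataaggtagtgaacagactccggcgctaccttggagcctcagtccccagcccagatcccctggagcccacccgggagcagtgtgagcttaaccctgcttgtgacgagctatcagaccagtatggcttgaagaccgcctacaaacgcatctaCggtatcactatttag

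Over 288 coding bases there are 4 substitutions from Bglap to Bglap2, counted from 1 at the A of the start codon: A10C, T14C, A31G and T273C. Of the 341 stretches of 100 bases in the 440-base Bglap transcript, 192 (56.3%) also occur without a mismatch in the Bglap2 transcript of 471 bases. Reads from such stretches are divided between the genes by the estimate, so the separate levels are uncertain.

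In the ground wild type, Bglap was listed at 0.28, 0.56, 0.33, 0, 0 and 0.14 TPM and Bglap2 at 0.48, 0.25, 0.29, 0.27, 0.27 and 0.12 TPM in mice 3, 5, 6, 7, 8 and 10. In FL-WT mice of the same order, Bglap was at 0, 0.18, 0, 0.29, 0 and 0.13 TPM and Bglap2 at 0, 0, 0, 0.13, 0 and 0 TPM. Bglap2 was thus listed at 0 in 5 of the 6 FL-WT mice and in none of the GC-WT mice, and mouse 7 alone kept the groups from separating.

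For mice 1, 2, 4, 9, 11 and 12 of the GC-KO group, Bglap was at 0.6, 0.5, 0.61, 0.35, 0.46 and 0.58 TPM and Bglap2 at 0.13, 0.22, 0.74, 0.2, 0.19 and 0 TPM. In FL-KO mice of the same order, Bglap was at 0.34, 0.29, 0, 0.53, 0.21 and 0.18 TPM and Bglap2 at 0, 0, 0.07, 0.23, 0.09 and 0.08 TPM. For Bglap, 5 of 6 FL-KO mice lay below the lowest GC-KO mouse, and mouse 9 was again the highest of the FL-KO group in both genes.

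Exact permutation tests over the mice (two-sided, unadjusted, 16 in all for the 4 untested members) gave p = 0.00433 for Bglap2 after flight in wild-type mice (mean 0.022 against 0.28 TPM), p = 0.0152 for Bglap after flight in Nrf2-KO mice (0.258 against 0.517 TPM) and p = 0.0152 for Bglap in ground mice without Nrf2 (0.517 against 0.218 TPM). In a fit of all 28248 genes with a value above 0 the same comparisons had limma adjusted p of 0.0268, 0.077 and 0.0342. Median-of-ratios scaling left the first and last of these (exact permutation p = 0.00216 and 0.00866) and not the second (exact permutation p = 0.145). The other osteocalcin comparisons had an exact permutation p of 0.104 or more, but after that scaling Bglap in FL-KO against FL-WT mice moved from an exact permutation p of 0.11 to 0.0476, with the higher mean in FL-KO mice. Bglap3, the third gene of the cluster, had group means of 0.0067 to 0.02 TPM.

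Turning to the osteoclast, the receptor Tnfrsf11a was scarce in all groups: 0.2 to 0.46 TPM in GC-WT (median 0.375), 0.2 to 0.5 TPM in FL-WT (median 0.28), 0.19 to 0.32 TPM in GC-KO (median 0.23) and 0.08 to 0.19 TPM in FL-KO mice (median 0.155). All FL-KO mice were below all FL-WT mice, and they met the GC-KO group only at its lowest value. The mean of FL-KO mice was 0.148 ± 0.040 TPM against 0.302 ± 0.115 TPM in FL-WT and 0.243 ± 0.053 TPM in GC-KO mice (SD, n = 6 each; exact permutation test, p = 0.00216, the smallest that 6 against 6 mice can give, and p = 0.00433). Among all tested genes 20.6% were without overlap and lower in FL-KO than FL-WT mice. After scaling by the median of ratios the exact permutation p was 0.00433 against FL-WT mice and 0.0519 against GC-KO mice.

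The fusion gene Ocstamp was close to absent. It was listed between 0 and 0.08 TPM, above 0 in 21 of 24 libraries and above 0.1 TPM in none. No difference was detectable (exact permutation p of 0.251 or more in the 4 comparisons). Dcstamp, its partner in fusion, had group means of 0.073 to 0.132 TPM, and Calcr, the calcitonin receptor of mature osteoclasts, 0.013 to 0.043 TPM.

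Atp6v0d2 passed the p threshold in both genotype comparisons and in neither flight comparison, always under 2-fold. It entered the fit only through 1 GC-WT and 1 FL-WT library above 1 TPM, and no Nrf2-KO library exceeded 1 TPM. A gene admitted through the wild-type groups alone has no unbiased test between genotypes, so its genotype values are description only. It ran from 0.54 to 1.52 TPM in GC-WT (median 0.635), 0.46 to 1.34 TPM in FL-WT (median 0.745), 0.26 to 0.61 TPM in GC-KO (median 0.46) and 0.38 to 0.5 TPM in FL-KO mice (median 0.41). The Nrf2-KO means were 0.583 times the wild type on the ground and 0.521 times after flight. The log2 fold changes were −0.28 ± 0.12 and −0.33 ± 0.12 (SE; limma, adjusted p = 0.0605 and 0.0214), close to the all-gene medians of −0.22 and −0.25, and 42.9% and 47.2% of tested genes passed the same p in that direction. Median-of-ratios scaling reduced them to −0.12 and −0.19 (adjusted p = 0.328 and 0.119). Flight gave 0.02 ± 0.12 in the wild type and −0.04 ± 0.12 in Nrf2-KO mice (adjusted p = 0.918 and 0.796).

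Acp5, the enzyme whose activity is stained to find osteoclasts and which macrophages also make, was measured most firmly. GC-WT mice had 23.3 to 35.9 TPM (median 25.02), FL-WT 16.7 to 24.4 TPM (median 20.2), GC-KO 20.5 to 25.9 TPM (median 22.7) and FL-KO 11.6 to 18.9 TPM (median 14.8). All FL-KO mice lay below all GC-KO mice, and 4 of 6 FL-WT mice below the lowest GC-WT mouse. No overlap in this direction was seen in 18.4% of all tested genes for the Nrf2-KO comparison.

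The means of Acp5 were 27.5 ± 5.38, 20.3 ± 3.21, 22.7 ± 2.18 and 15.0 ± 2.55 TPM (SD, n = 6 each) in the same order. Its log2 fold change after flight was −0.41 ± 0.13 in wild-type and −0.58 ± 0.13 in Nrf2-KO mice (SE; limma, adjusted p = 0.0204 and 0.00133), under 2-fold in both. Against the median of all genes this left −0.17 and −0.29, and under median-of-ratios scaling −0.07 and −0.17 (adjusted p = 0.721 and 0.341). Between FL-KO and FL-WT mice the log2 fold change was −0.42 (limma, adjusted p = 0.00927). Under that scaling this log2 fold change was 0.0012, so the difference was no longer seen.

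Ctsk, the collagen-cutting protease of the resorption pit, varied more between mice than between groups. Its levels were 2.12 to 7.64 TPM in GC-WT (median 3.92), 0.91 to 5.24 TPM in FL-WT (median 3.34), 2.22 to 5.52 TPM in GC-KO (median 3.13) and 1.5 to 4.6 TPM in FL-KO mice (median 3.06). In GC-WT mice 3 values were above 5 TPM and 3 below 2.5 TPM. None of the 4 comparisons passed the threshold, with log2 fold changes from −0.37 ± 0.29 in FL-WT vs. GC-WT to −0.03 ± 0.29 in FL-KO vs. FL-WT (SE; limma, adjusted p = 0.323 to 0.949).

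A wider set of 64 bone genes in 6 lists was read in the same way, and 31 of them were tested. In FL-WT vs. GC-WT none was called in either direction (limma); 12 passed the adjusted p alone as lower, close to the 39.0% of all genes that did, and 2 as higher (0.994% of all genes), the transcription factor subunit Fos and the signalling adaptor Tyrobp. In FL-KO vs. GC-KO 22 passed the adjusted p as lower (53.1% of all genes did), and of these 2 were called, Mmp9 and Phospho1 (2.13% of all genes were). GC-KO vs. GC-WT gave 5 called lower (3.04% of all genes were) and FL-KO vs. FL-WT 7 (8.36% of all genes). The median log2 fold change of the 31 genes was −0.33, −0.41, −0.35 and −0.43 in these 4 comparisons, lower than that of all genes by 0.09, 0.12, 0.13 and 0.18.

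Of the resorption genes, Mmp9, a gelatinase that neutrophils also store, had the largest difference. Its mean was 151 ± 40.1 TPM in GC-WT, 141 ± 80.2 TPM in FL-WT, 44.0 ± 27.9 TPM in GC-KO and 16.8 ± 5.12 TPM in the FL-KO group (SD, n = 6 each). It fell with loss of Nrf2 on the ground (log2 fold change −1.92, limma adjusted p = 0.000411) and after flight (−2.85, adjusted p = 8.54e-07), and was also lower after flight within Nrf2-KO mice (−1.17, adjusted p = 0.00821). The last of these missed the 2-fold limit without GC-KO mouse 11 or 12 (−0.97 and −0.94) and under median-of-ratios scaling (−0.75). Of the 9 neutrophil markers 2 and 3 were called lower in these genotype comparisons, where 3.04% and 8.36% of all genes were. By the adjusted p alone 5 of the 9 were lower on the ground and 6 among flown mice, where 42.9% and 47.2% of all genes were. On the ground 2 others, S100a8 and S100a9, passed the adjusted p as higher, as did 387 of 12373 genes. Among flown mice 0 of the 9 neutrophil markers did. The part of those cells in the Mmp9 difference was not tested.

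In FL-KO vs. GC-KO all 10 tested resorption genes had log2 fold changes below 0, as 93.5% of all genes did. Of these 10, 7 passed the adjusted p as lower (limma), where 53.1% of all genes did. The median of the 10 was −0.71, against −0.29 for all genes. In 3 the groups did not overlap (18.4% of all genes), namely Tcirg1, Clcn7 and Car2. The means of Tcirg1 and Clcn7 were 8.48 and 2.23 TPM in GC-KO and 4.53 and 0.953 TPM in FL-KO mice. Car2, the carbonic anhydrase that supplies protons and is abundant in red cells, had means of 494 TPM in GC-WT, 281 TPM in FL-WT, 529 TPM in GC-KO and 292 TPM in FL-KO mice, with log2 fold changes of −0.79 and −0.87 for flight (limma, adjusted p = 0.00291 and 0.000866), under 2-fold. Tcirg1, the osteoclast form of the proton pump subunit, was called lower in flown Nrf2-KO than flown wild-type mice (−1.21, adjusted p = 6.3e-06), and Plekhm1, which steers lysosomes to the bone face, in both genotype comparisons (−1.07 and −1.28). The Tcirg1 call and both Plekhm1 calls missed the 2-fold limit under median-of-ratios scaling (−0.83, −0.76 and −0.98), and the ground value of Plekhm1 did so without GC-KO mouse 4 (−0.99). These 3 values, when trends with GC content and length were taken out (an alternative added after the data were seen), were −0.52, −0.42 and −0.45. Snx10 and Ostm1, of the same list, had group means of 11.8 to 12.8 and 6.51 to 7.90 TPM and passed the p threshold in no comparison.

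Among genes of osteoclast formation, the M-CSF receptor Csf1r and the transcription factor Nfatc1 were called lower in both genotype comparisons. Csf1r had means of 16.0 and 12.5 TPM in GC-WT and FL-WT mice and 6.42 and 2.77 TPM in GC-KO and FL-KO mice, and Nfatc1, in the same order, 12.3, 9.14, 4.67 and 2.17 TPM. Their log2 fold changes were −1.24 and −1.29 on the ground and −1.74 and −1.60 after flight (limma, adjusted p from 4.18e-06 to 0.000597); under median-of-ratios scaling the ground values were −0.91 and −0.97, short of 2-fold. With GC content and length trends removed, the Nfatc1 call after flight was lost too (−0.89). Both are general genes of monocytes and other blood cells, and the 2 receptor adaptors most abundant in the list, Tyrobp and Fcer1g, were called in no comparison.

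Of the ligands, those of the RANK system were hardly present. Tnfsf11, the gene of RANKL, had group means of 0.083 to 0.093 TPM, and Tnfrsf11b, the gene of its decoy osteoprotegerin, was listed at 0 in every GC-WT mouse and had means of at most 0.0067 TPM elsewhere. Csf1 was at 3.10, 2.32, 2.46 and 1.31 TPM and Il34 at 0.693, 0.4, 0.627 and 0.252 TPM in the same order of groups, neither called. After flight in Nrf2-KO mice both passed the adjusted p as lower (log2 fold change −0.58 and −0.38, limma adjusted p = 0.00308 and 0.0151), and all FL-KO mice were below all GC-KO mice in Csf1 (0.97 to 1.73 against 2.14 to 3.12 TPM), as in 18.4% of all genes. The RANKL to osteoprotegerin ratio could not be read from these levels.

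Of 13 further osteoblast genes 4 were tested. Ibsp, bone sialoprotein, went with the collagens: 1.94 ± 0.597 TPM in GC-WT, 0.833 ± 0.311 TPM in FL-WT, 2.44 ± 0.596 TPM in GC-KO and 1.22 ± 0.629 TPM in the FL-KO group (SD, n = 6 each). Its log2 fold changes for flight were −0.67 and −0.65 (limma, adjusted p = 0.00397 and 0.00293), and the wild-type groups did not overlap (4.19% of all genes). Phospho1, a phosphatase of mineralization that red cell precursors also express, was called lower after flight within Nrf2-KO mice (−1.05) and, among flown mice, without Nrf2 (−1.46). The first of these fell short of 2-fold under median-of-ratios scaling (−0.67), without GC-KO mouse 11 or 12 (−0.94 and −0.97) and without FL-KO mouse 2, 4 or 9 (−0.9996, −0.99 and −0.98). The second was lost with GC content and length trends removed (−0.68). Spp1, osteopontin, had means of 4.59 to 7.12 TPM and was not called. Sp7, which commits cells to the osteoblast line, had group means of 0.08 to 0.16 TPM.

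The 5 osteocyte genes were all below 1 TPM in every library, and their sum was at most 0.27 TPM. Phex and Dmp1 had group means of 0.035 to 0.1 and 0.025 to 0.05 TPM. Of 18 other collagen and matrix genes 6 were tested. Fn1, fibronectin, which blood monocytes also make, was called lower in Nrf2-KO mice on the ground (−2.14, limma adjusted p = 0.000216) and after flight (−2.33, adjusted p = 4.18e-06), from a GC-WT mean of 31.4 TPM to 6.5 TPM in GC-KO and 3.4 TPM in FL-KO mice. Bgn, a small proteoglycan of bone and other matrix, was lower in all 4 comparisons by the p alone (−0.64 to −0.67). Fibrillar Col3a1, the collagen of soft connective tissue, had group means of 0.073 to 0.205 TPM, under those of Col1a1.

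**Figure D3:**
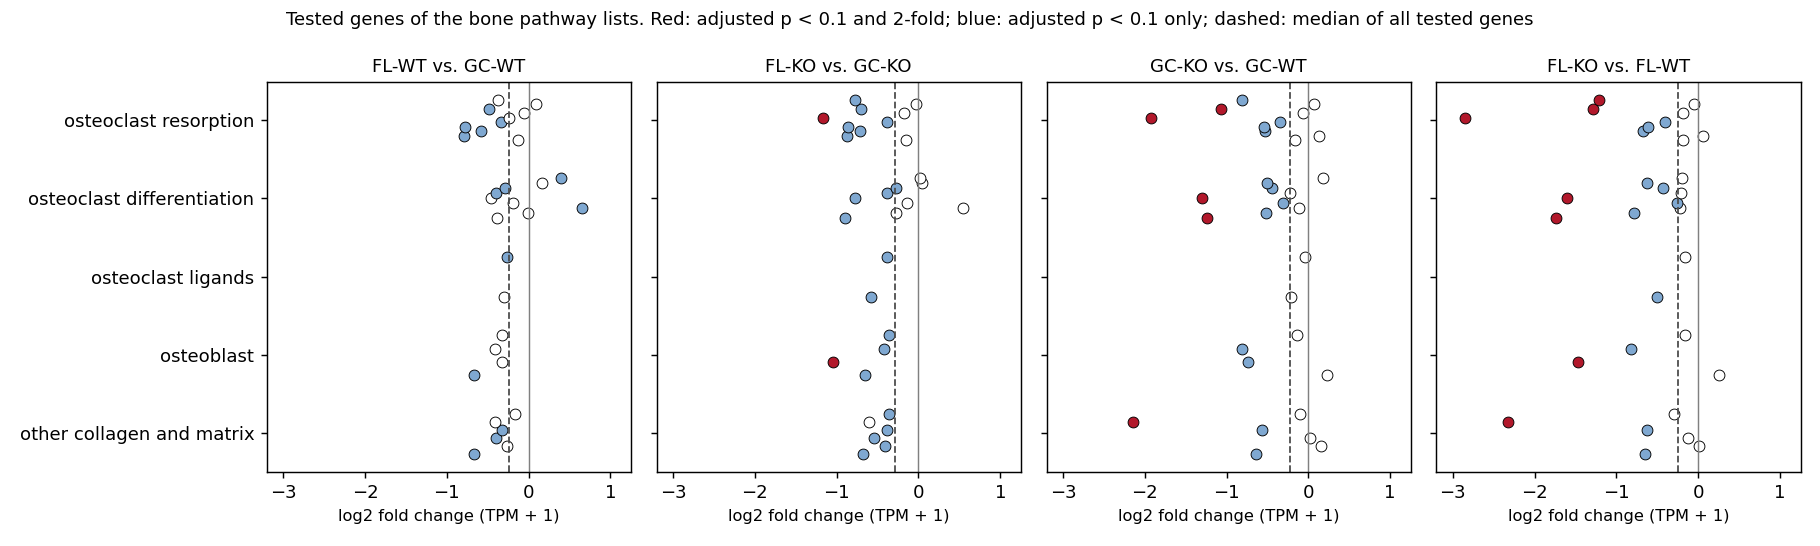
Log2 fold change of TPM + 1 (x axis) of each tested gene in 5 of the 6 bone lists (y axis; no osteocyte gene was tested) for the 4 comparisons; red points are called DEGs, blue points passed the adjusted p alone, and the dashed line is the median of all tested genes. Called genes are seen in the Nrf2-KO comparisons, with Mmp9 (−2.85) and Fn1 (−2.33) farthest to the left, and none in FL-WT vs. GC-WT.

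Markers of several other cells were lower after flight beside the matrix genes. Of 9 neutrophil markers none passed the adjusted p as lower and 5 passed as higher in wild-type mice (median log2 fold change 0.33). Of all genes 39.0% and 0.994% did. In Nrf2-KO mice 2 passed as lower and 1 as higher (0.08), where 6565 and 37 of 12373 genes did. The summed adipocyte markers overlapped between all groups, at 4.84 to 12.38 TPM. Of 8 marrow stroma markers 6 were tested, and 4 and 6 of them passed the adjusted p as lower in the wild-type and Nrf2-KO flight comparisons, where 39.0% and 53.1% of all genes did. None of these markers reached 2-fold on the log2(TPM + 1) scale. Their summed level ran from 30.8 to 75.9 TPM in GC-WT, 17.5 to 53.4 TPM in FL-WT, 36.5 to 66.3 TPM in GC-KO and 12.99 to 52.4 TPM in FL-KO mice. Cxcl12, the chemokine that marks these cells, had means of 44.4, 29.1, 42.6 and 22.6 TPM. In the same order Ebf3 had means of 1.35, 0.552, 1.49 and 0.603 TPM and Kitl 1.505, 1.13, 1.565 and 0.953 TPM. The median log2 fold change of the list was −0.39 and −0.56 for flight and 0.01 and −0.16 for genotype, against −0.77, −0.94, 0.01 and −0.17 for the 3 tested matrix members. Apart from Cxcl12 the tested stroma genes averaged 0.573 to 1.69 TPM, where the added constant holds back fold changes. These medians are therefore not a like comparison. All 4 B lineage markers passed the adjusted p as lower after flight in both genotypes (limma), with median log2 fold changes of −0.72 and −0.91. Of 5 erythroid markers 2 and 3 did, with medians of −0.18 and −0.47. The shares of all genes were again 39.0% and 53.1%. The part of stromal cell numbers, or of other cells, in the collagen difference was not tested.

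All 12 megakaryocyte markers were tested, and 9 and 12 of them passed the adjusted p as lower after flight in wild-type and Nrf2-KO mice (median log2 fold change −0.69 and −0.77), with 0 and 2 called. Of all genes 39.0% and 53.1% passed in that direction, and 0.938% and 2.13% were called lower. Their sum ran from 107 to 346 TPM in GC-WT, 55.0 to 184 TPM in FL-WT, 117 to 213 TPM in GC-KO and 37.1 to 164 TPM in FL-KO mice, and their part in the Sparc difference was not tested. Endothelial markers summed to 4.13 to 9.67, 2.48 to 6.56, 4.09 to 8.34 and 2.47 to 6.43 TPM in the same order. Mylpf gave most of the signal of the 8 skeletal muscle markers. Their sum was 3.36 to 7.13 TPM in ground mice and 1.46 to 3.18 TPM in flight mice, without overlap in either genotype. Of the 3 tested muscle genes, 0 and 1 were without overlap in the wild-type and Nrf2-KO flight comparisons (4.19% and 18.4% of all genes). The 1 was Mylpf, with means of 3.185, 1.71, 3.337 and 2.085 TPM in the order of groups used above. By the adjusted p alone 1 and 3 were lower (limma), where 39.0% and 53.1% of all genes were. Acta1 and Ckm exceeded 1 TPM only in GC-KO libraries, so they have no unbiased FL-KO vs. GC-KO test. The 3 had median log2 fold changes of −0.16 and −0.43, against −0.24 and −0.29 for all genes. Group means of Acta1 and Ckm were 0.0617 to 0.613 TPM, where the added constant holds back fold changes. These medians are not a like comparison. Cartilage markers, 7 in all, summed to at most 0.22 TPM, with Matn3 at 0 throughout. The part of tissue carried along at dissection was not tested.

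The macrophage markers, which could share Acp5, had median log2 fold changes of −0.31 and −0.47 for flight, and their sum ran from 72.4 to 135, 62.3 to 121, 72.6 to 99.8 and 41.7 to 73.3 TPM in the order of groups used above. The ratio of Acp5 to C1qb, a complement gene of tissue macrophages, was chosen after the values were seen. It had medians of 1.35, 1.18, 1.18 and 1.2015 in these groups. The part of macrophages in the Acp5 difference was not tested.

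A ratio of genes within a library does not depend on how libraries are scaled to each other. The ratio of Col1a1 to Col1a2, chosen after the values were seen and so given without a test, ran from 0.898 to 1.36 in GC-WT (median 1.15), 0.658 to 0.976 in FL-WT (median 0.764), 0.994 to 1.55 in GC-KO (median 1.29) and 0.707 to 1.33 in FL-KO mice (median 0.970). Flight mice thus had relatively less of the first chain than of the second, with overlap in both genotypes. The 2 genes differ in mean GC content (54.5% and 47.5%) and in median transcript length (428 and 2034.5 bases). Trends with GC content and length were not removed from the ratio. The ratios that follow were chosen in the same way. That of Col1a1 to Cxcl12 had medians of 0.0711, 0.0353, 0.0850 and 0.0408. It ran from 0.0419 to 0.121 in GC-WT and 0.0263 to 0.0443 in FL-WT mice. In GC-KO and FL-KO mice it ran from 0.0502 to 0.132 and 0.0201 to 0.0983, with overlap in both genotypes. That of Sparc to the megakaryocyte gene Pf4 had medians of 0.0863, 0.0917, 0.0698 and 0.0616. It ran from 0.0559 to 0.150 in GC-WT and 0.0677 to 0.143 in FL-WT mice. In GC-KO and FL-KO mice it ran from 0.0450 to 0.0872 and 0.0411 to 0.0984. The parts of stromal cells and megakaryocytes in these ratios were not tested.

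Across the 24 mice both collagen chains and Sparc varied together. Pearson's r of log2(TPM + 1) was 0.98 for Col1a1 and Col1a2, 0.89 for Col1a2 and Sparc and 0.82 for Col1a1 and Sparc, and 0.98, 0.89 and 0.83 after the group means were taken away. The osteocalcin genes varied less with them, from 0.29 for Bglap and Sparc to 0.70 for Bglap2 and Col1a1, and had 0.39 with each other (0.23 within groups). Acp5 and Ctsk had 0.55 (0.66 within groups), and Atp6v0d2 had −0.02 with Col1a1. These are descriptions over 24 libraries that share their scaling and composition.

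**Figure D4:**
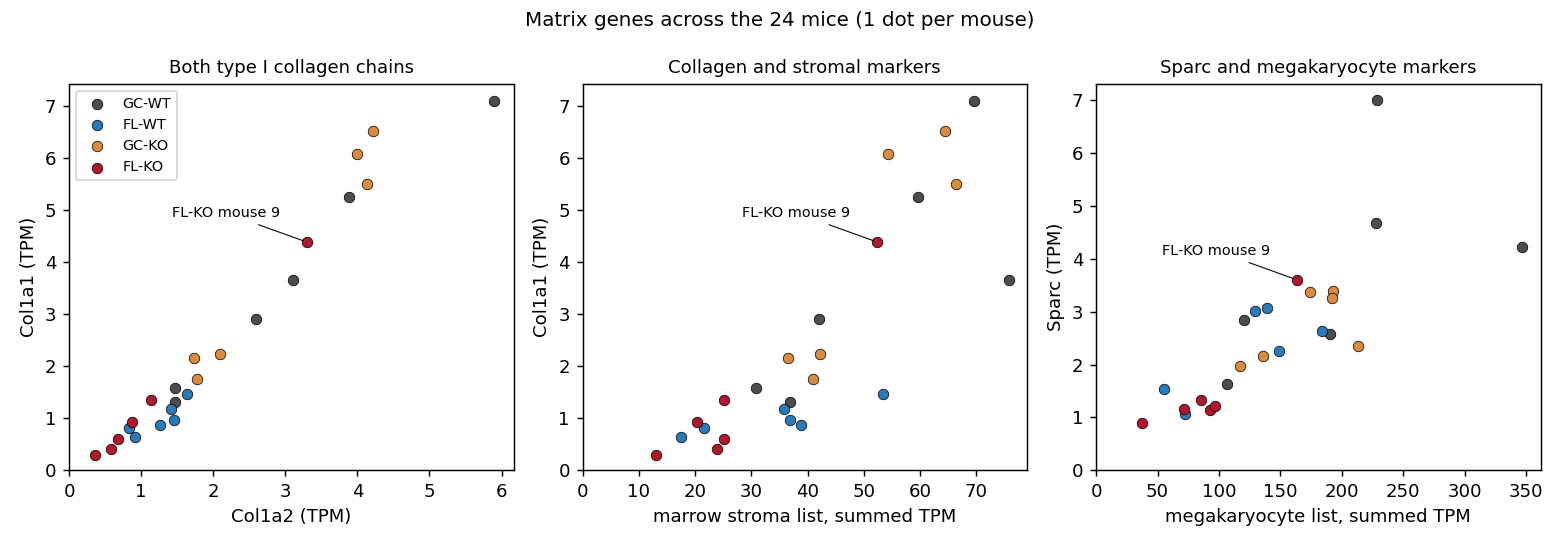
TPM of Col1a1 against Col1a2, of Col1a1 against the summed marrow stroma markers, and of Sparc against the summed megakaryocyte markers, with a dot for each of the 24 mice and colours for the 4 groups. The collagen chains lie close to a line (r = 0.98 on log2(TPM + 1), not on the TPM drawn). FL-KO mouse 9, with 4.39 TPM of Col1a1 and 52.4 TPM of stroma markers, falls among the ground mice in each panel.

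The genes most like each member in their pattern over the 24 libraries were sought among 10416 tested genes that averaged 1 TPM or more. Col1a1 was closest to Ibsp (r = 0.90), Gdpd2 and Clca3a1 (0.89 each), and Col1a2 to Itga2b (0.91), Cxcl12 and Clca3a1 (0.90 each). Sparc was closest to Serpine2 (0.95), Gas6 (0.94) and F2rl3 (0.91), and Acp5 to Pfkm, Ces2g (0.93 each) and Slc29a1 (0.92). Ctsk and Atp6v0d2 had no close match, with Gm47737 (0.68) and A930005H10Rik (0.79) as the best.

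Promoters are shown for Bglap and Col1a2 as RefSeq gives them for GRCm38.p6, from 250 bases before to 50 bases after the start. Bglap, under 1 TPM throughout, had a higher mean in GC-KO than GC-WT mice (exact permutation test, unadjusted p = 0.0152). Bglap2, whose level is hard to separate from it, did not (0.247 against 0.28 TPM). Col1a2 passed the p threshold as lower after flight in both genotypes. RefSeq promoters were matched for 6 of the 10 members, 8 promoters in all. Capitals mark 4 motifs searched: the RUNX core ACCACA, the CCAAT box CCAAT and the antioxidant response element TGACNNNGC (the site Nrf2 binds), each on both strands, and TATAAA on the gene's strand.
Bglap, chr3:88384417-88384716, minus strand: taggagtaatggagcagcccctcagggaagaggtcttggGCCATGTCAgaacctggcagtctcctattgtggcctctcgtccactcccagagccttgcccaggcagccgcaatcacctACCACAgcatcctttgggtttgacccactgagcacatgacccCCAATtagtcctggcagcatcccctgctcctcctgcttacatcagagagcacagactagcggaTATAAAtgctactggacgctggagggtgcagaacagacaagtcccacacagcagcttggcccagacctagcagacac
Col1a2, chr6:4505368-4505667, plus strand: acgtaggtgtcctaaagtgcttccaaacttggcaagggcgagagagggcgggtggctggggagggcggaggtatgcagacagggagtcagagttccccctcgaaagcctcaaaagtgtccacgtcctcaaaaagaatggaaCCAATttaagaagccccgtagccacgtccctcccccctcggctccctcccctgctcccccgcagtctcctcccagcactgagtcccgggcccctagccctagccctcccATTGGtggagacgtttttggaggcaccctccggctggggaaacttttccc

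Bglap held all 4 motifs, with ACCACA 132 bases before the start, and Col1a2 held CCAAT at 2 places and no other. Of the 8 member promoters, ACCACA was found in 2, CCAAT in 4, TGACNNNGC in 2 and TATAAA in 1, and of all 32851 promoters in 16.8%, 37.4%, 12.4% and 8.32%. Such matches describe the letters only.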

How the data were processed

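RNA of frozen bone marrow cells from 24 mice was sequenced by the authors from directional total RNA libraries (DNBSEQ-G400), aligned with STAR 2.6.1 to mm10 and quantified with RSEM 1.3.1; the deposited values are TPM per gene, with no counts and no depth. Every library sums to the same total. Members and lists were chosen with earlier results of these data known. IDs were matched to GENCODE vM21 (54723 of 54752). limma 3.58.1 (R 4.3.3) was fitted to log2(TPM + 1) of 12373 genes above 1 TPM in at least 1 library, over 4 group means of all 24 libraries; calls needed a Benjamini-Hochberg adjusted p under 0.1 and 2-fold. Members under the filter were compared by exact permutation tests (scipy 1.17.1) over 924 splits. Named were all members, called list genes (at most 8 per comparison), the 2 most abundant genes per list and the 3 most similar genes per member; other names were chosen after their values were seen. The fit was tested on simulated data. Mouse numbers shared by flight and ground mice did not pair the samples. The processing discards depth, and TPM of a gene falls where abundant RNAs take more of a library.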

Additional observations from a re-analysis of the deposited data

Results flagged for a closer look

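In 40 groups of 6 mice (10 genes in 4 groups) the highest or lowest value was set against Dixon's limit of 0.625 for the gap to its neighbour over the range. Chance flags about 1 in 20 such groups, and 8 were found, with genes that share mice and vary together. In FL-KO mice, mouse 9 stood above the other 5 in Col1a1 (4.39 TPM), Col1a2 (3.3 TPM) and Sparc (3.6 TPM); its marker sums are given above with those genes, and their part in it was not tested. Mouse 4 of the GC-KO group was high in Ctsk (5.52 TPM) and Bglap2 (0.74 TPM). Mouse 4 of the FL-KO group was high in Atp6v0d2 (0.5 TPM), where the other 5 lay between 0.38 and 0.41 TPM. GC-WT mouse 6 was high in Atp6v0d2 (1.52 TPM). FL-WT mouse 7 was the only mouse of its group with Bglap2 above 0 (0.13 TPM).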

How the results depend on the processing

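Among members, Col1a1 alone was called after flight in wild-type and in Nrf2-KO mice. With 0.1 added in place of 1 there were 2 calls (Col1a1 and Col1a2) in each genotype, and with no minimum fold change 4 in each, 1 between ground genotypes and 2 between flown genotypes. Median-of-ratios scaling, quantile normalization and removal of GC content and length trends (the last chosen after seeing the data) each left 0: Col1a1 then missed 2-fold and, under quantile normalization in wild-type mice, also the p threshold (adjusted p = 0.11). Without 5 small RNAs (also chosen after seeing the data) there were 2 in Nrf2-KO mice. Leaving out 1 mouse gave 0 to 1 call in wild-type mice (0 without GC-WT mouse 5 or 8), 1 to 2 in Nrf2-KO mice and none between genotypes or in the interaction (limma).

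Sign changes concerned log2 fold changes that were not called. Median-of-ratios scaling turned Acp5 to 0.097 between genotypes on the ground and 0.0012 after flight, Ctsk to 0.18 for flight in Nrf2-KO mice and, between genotypes, to 0.022 on the ground and 0.27 after flight, Atp6v0d2 to 0.10 for flight in Nrf2-KO mice and Col1a2 to 0.045 between flown genotypes. Quantile normalization gave, in the same order, 0.038, 0.013, 0.24, 0.053, 0.33, 0.17 and 0.058, and 0.029 for Sparc between ground genotypes. Removal of GC content and length trends gave 0.20, 0.18, 0.21, 0.016, 0.31, 0.19 and 0.15, and for Sparc 0.12 and 0.15 between ground and flown genotypes; it also turned the interactions of Col1a1 and Sparc to 0.079 and 0.034. Without the small RNAs the interactions of Acp5, Atp6v0d2, Col1a1 and Sparc were 0.021, 0.017, 0.0064 and 0.028, Ctsk was 0.036 between flown genotypes, Atp6v0d2 0.030 for flight in Nrf2-KO mice and Col1a2 −0.084 between ground genotypes. With 0.1 added, Col1a1 was −0.093 between flown genotypes. In TPM, median-of-ratios scaling turned the differences of Ocstamp and Bglap2 between ground genotypes to 0.0065 and 0.039 and that of Tnfrsf11a for flight in wild-type mice to 0.020. The cause of these changes was not tested.

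Leaving out 1 mouse turned the sign of small values. Their ranges were −0.061 to 0.12 for Atp6v0d2 with flight in wild-type mice and −0.24 to 0.0029 for Ctsk with flight in Nrf2-KO mice. Between genotypes they were −0.036 to 0.33 for Col1a1 and −0.12 to 0.18 for Col1a2 on the ground, and −0.23 to 0.18 for Col1a1 and −0.24 to 0.11 for Ctsk after flight. In the interaction they were −0.16 to 0.023 for Atp6v0d2, −0.37 to 0.083 for Col1a1 and −0.28 to 0.065 for Sparc. The exact tests of the 4 scarce members were not repeated with mice left out.

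Over all genes, counts of calls moved by more than 1.5 times under several settings. In the fit used above, 116 genes were lower and 8 higher after flight in wild-type mice, and 264 and 0 after flight in Nrf2-KO mice. Between ground genotypes there were 376 and 16, and between flown genotypes 1034 and 12. In the same order there were 494 and 16, 925 and 15, 946 and 37, and 1984 and 45 with 0.1 added; 16 and 19, 22 and 8, 62 and 35, and 381 and 27 under median-of-ratios scaling; 32 and 10, 25 and 7, 86 and 33, and 309 and 28 under quantile normalization. Removal of GC content and length trends gave 23 and 13, 12 and 6, 48 and 21, and 161 and 32, no minimum fold change 4821 and 123, 6565 and 37, 5306 and 387, and 5844 and 236, and the fit without small RNAs 230 and 8, 189 and 5, 902 and 21, and 1186 and 24.

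Mouse numbers shared by ground and flight mice did not pair them: same-numbered mice correlated from −0.03 to 0.27, and 3 of 12 were closest to their own number. A fit with the mouse number as a block gave Col1a1 log2 fold changes of −1.09 and −1.18 and changed no call of a member. Over all genes it gave 118 lower and 10 higher calls in wild-type mice and 265 and 0 in Nrf2-KO mice. In the interaction it gave 9 and 1, against 2 and 0 in the fit used above. Depth is unknown, so a 0 among the scarce members sets no limit on their level.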
